A study of Rattus norvegicus with 17 samples.

Results

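The 8 sham arrays are the skin samples of rats that went through the exposure schedule without receiving any millimetre waves, and they were chosen by their treatment label. They are 8 of the 17 arrays of the series, and the other 9 carry RNA of exposed skin. They served here to describe the baseline of this skin: which genes gave a bright signal, which were not detected, and which differed from 1 sham sample to the next. Both groups consisted of male CD hairless rats that were 2 to 3 months old at the start, lived 2 to a cage at 22 °C, and were followed for 5.5 months. Exposure was to 94 GHz, 3 h at a time, 3 days a week, and the sham rats kept that schedule with no field. The design names 8 sham animals for the 8 sham arrays and 6 exposed animals for the 9 exposed arrays, so some exposed arrays share an animal. No label says which animal, cage or body site an array came from. The spread reported below is therefore a spread between arrays, whose sources (rat, biopsy, extraction, hybridisation) cannot be told apart.

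Skin is a layered organ. Keratinocytes of the epidermis divide in the basal layer, then move outward and build the cornified barrier from keratins, cross-linked proteins and lipids. Below them, fibroblasts of the dermis lay down collagen, and the follicles, sebaceous glands, vessels, nerves and immune cells are set into that matrix. In rodents a thin sheet of striated muscle, the panniculus carnosus, lies under the dermal fat. A hair follicle makes its shaft and inner root sheath only during the growth phase of its cycle, and hairless strains still form follicles whose fibres are defective or shed. The CD hairless rat is known for a mutation of Prss8, which encodes the membrane protease prostasin.

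Each array gave the brightness of 30367 probes, and 17998 of them could be given a gene symbol, which together stood for 15150 genes with a value on all sham arrays. A level is the log2 of a probe's processed signal minus the log2 of the 75th percentile of its array, so that 0 stands for that percentile. A gene with several probes was read from the brightest. The 75th percentile ran from 1077 to 1576 intensity units in the sham arrays, between 66.7% and 69.6% of probes lay well above background, and no spot was saturated. Probes bind with different strength, so a level is the brightness of a probe and gives no order of transcript amounts between genes.

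Most named genes were detected. Of 15150 genes, 10380 (68.5%) lay well above background on all 8 sham arrays and 2996 (19.8%) on none. A further 736 were well above background on 4 to 7 arrays and 1038 on 1 to 3. The median gene had a level of -2.63, and the brightest 5% lay above 2.97. The 11116 genes detected on at least 4 arrays are called measured below. Counts of list members detected on all 8 arrays are to be read against the 68.5% of all named genes.

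The brightest probes belonged to the translation machinery and to the epidermis. Among the 15 brightest genes, 11 encoded ribosomal proteins, led by Rpl41 with a level of 8.41 ± 0.15 (SD, n = 8) and Rplp0 with 8.11 ± 0.08. The other 4 were Lgals7, a galectin of stratified epithelia, at 8.31 ± 0.10, Fabp5, the epidermal fatty acid binding protein, at 8.04 ± 0.09, Ceacam9 at 7.86 ± 0.16 and Cst6, a cysteine protease inhibitor of the cornifying layers, at 7.71 ± 0.12. Rpl41 was 341 times as bright as the 75th percentile of its arrays. The 8 arrays hardly differed in these genes: Lgals7 ran from 8.12 to 8.42 with a median of 8.34, and Fabp5 from 7.92 to 8.18 with a median of 8.06. Within the 100 brightest genes, whose levels reached down to 6.05, 57 were ribosomal. All 100 were well above background on every sham array, their median SD was 0.145, and none had an SD above 1. This account covers named genes alone, since 19 of the 40 brightest probes carry no symbol.

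Housekeeping groups sat near the top of the brightness range as whole lists. All 75 named ribosomal protein genes were well above background on all 8 arrays, with a median level percentile of 99.6 and a median SD of 0.144. Rpl15 was the dimmest of them, at a level of -1.24. The 30 named genes of the respiratory chain and ATP synthase had a median percentile of 97.4, with Atp5f1a, the catalytic-side alpha subunit of ATP synthase, at 6.12 ± 0.07 and Cox6a1, the widely expressed form of a cytochrome oxidase subunit, at 6.05 ± 0.11. The 27 genes of the proteasome and ubiquitin had a median percentile of 95.3, and Ubb, a polyubiquitin gene, lay at 5.75 ± 0.07. Every named member of these lists was detected on all 8 arrays.

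Most epidermal markers were bright, and their spread was near or above that of other genes. The median SD was 0.174 for basal and 0.253 for differentiation markers, against 0.178 over all measured genes. Of 10 named basal keratinocyte markers all 10 were detected on all arrays, with a median level percentile of 97.5. Krt14, the type I keratin of the basal layer, ran from 6.95 to 7.36 with a median of 7.18, and Krt5, its partner, from 5.03 to 5.44 with a median of 5.26. Perp, a desmosomal protein, lay at 6.88 ± 0.12 and Krt15, a keratin of basal and bulge cells, at 6.28 ± 0.28. Above the basal layer, 14 of 15 named markers of differentiated epidermis were detected on all arrays. Krt1, the keratin that replaces Krt5 as cells leave the basal layer, ran from 6.79 to 7.80 with a median of 7.54, and its SD of 0.33 was 0.189 without array 3. Dmkn, the secreted protein dermokine, lay at 5.62 ± 0.25 and Lce1m, of the late cornified envelope, at 3.80 ± 0.47. Krt2, a keratin of the uppermost living layers, was dim at -3.78 ± 0.48. None of the 10 basal and none of the 15 differentiation markers had an SD above 1.

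The lipid pathways of skin were detected almost completely. Of the sterol synthesis list 20 of 20 genes were detected on all arrays, with Hmgcs1, which makes the precursor of mevalonate, at 6.73 ± 0.15 and Msmo1, a sterol demethylase, at 4.97 ± 0.14. Of 17 named genes of barrier lipid synthesis 16 were detected on all arrays. Elovl1, which elongates fatty acids for ceramides, lay at 6.46 ± 0.37, Smpd1, an acid sphingomyelinase, at 4.20 ± 0.24, and Cers3, the ceramide synthase of the epidermis, at -3.54 ± 0.55. Sebaceous gland genes had a median level percentile of 94.4 over 17 named members, and 16 were detected on all arrays. Scd, the stearoyl-CoA desaturase, ran from 4.87 to 5.84 with a median of 5.52, and Acsbg1, an acyl-CoA synthetase, lay at 5.29 ± 0.20. Mc5r, the melanocortin receptor of sebocytes, was dimmer at -1.85 ± 0.57.

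The genes of the dermis spanned a wide range of brightness and were less even between arrays than most genes. The median level percentile was 92.8 for collagens, 76.5 for other matrix genes and 69.1 for fibroblast markers. Col1a2 and Col1a1, the chains of type I collagen, lay at 7.22 ± 0.28 and 6.73 ± 0.60, and Col3a1, of type III collagen, at 5.14 ± 0.79. Col1a1 ran from 6.09 to 7.97 with a median of 6.64, and its highest value was that of sham array 5. Sparc, a collagen-binding matrix protein, lay at 6.50 ± 0.59 and Bgn, the proteoglycan biglycan, at 4.57 ± 0.23. All 8 named collagens and all 20 other matrix genes were detected on every array, with a median SD of 0.565 and 0.506 against 0.178 over all measured genes. Among fibroblast markers, Pcolce, which enhances procollagen cleavage, lay at 4.56 ± 0.59 and Gsn, an actin-severing protein, at 4.31 ± 0.17. Twist2, a transcription factor of dermal fibroblasts, was dim at -4.61 ± 0.60 but well above background on all 8.

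Markers of vessels, nerve and pigment cells were found at lower brightness. Of 11 named genes of blood endothelium 10 were detected on all arrays, with Pecam1, an adhesion molecule of endothelial junctions, at 1.81 ± 0.43 and Kdr, the main receptor for vascular growth factor, at 1.74 ± 0.27. Lymphatic endothelium had 4 of 6 named genes (66.7%) on all arrays, close to the 68.5% of all named genes. Pdpn, the surface mucin podoplanin, lay at 1.00 ± 0.61 and Lyve1, a hyaluronan receptor, at -4.67 ± 1.11. Schwann cell genes had a median level percentile of 45.0, with Pmp22, a myelin protein, at 0.73 ± 0.42. Melanocyte genes were present as well: Mitf, the regulator of the lineage, lay at 0.59 ± 0.22 and Mlana, a melanosome protein, at -1.24 ± 0.68. Tyr, the tyrosinase that starts melanin synthesis, lay at -6.00 ± 1.46 and was well above background on only 4 of 8 arrays.

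Immune markers ranged from bright to undetected. Of 16 named macrophage and dendritic cell genes 15 were detected on all arrays, with Lyz2, a lysozyme of myeloid cells, at 3.88 ± 0.64, and Cd74, the invariant chain of class II presentation, lay at 3.39 ± 0.43. T cell genes had a median level percentile of 32.1, and 9 of 13 (69.2%) were detected on all arrays, close to the 68.5% of all named genes, among them Cd3d, a chain of the T cell receptor complex, at -1.50 ± 0.18. B cell and plasma cell genes had the lowest median level percentile of the marker lists, 20.3, with 2 of 7 on all arrays and 3 on none. For neutrophils, 5 of 11 genes were detected on all arrays and 4 on none, and S100a8, which keratinocytes also make, was the brightest at 3.70 ± 0.35. Of 11 named mast cell genes 7 (63.6%) were detected on all arrays, against the 68.5% of all named genes. All 11 were detected on at least 4 arrays, as were 11116 of all 15150 named genes. Cma1, a chymase, lay at -1.44 ± 1.23 and Cpa3, a carboxypeptidase of mast cell granules, at -3.87 ± 1.41. Hba-a1, an alpha globin of red cells, lay at 2.55 ± 0.62. In such tissue samples fewer cells of a type and less RNA per cell cannot be told apart.

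Genes of organs other than skin were detected less often than named genes as a whole. Of 43 named genes of liver, kidney, pancreas, brain, lung, testis, pituitary and eye, 15 (34.9%) were well above background on all 8 sham arrays and 19 on none, with a median level percentile of 21.5. The shares of the marker lists above can be set beside these, but whether these genes are expressed in skin was not tested. The brightest of them were Sftpb and Sftpc, surfactant proteins of the lung, at -1.29 ± 0.56 and -1.33 ± 0.83. Fgg, the gamma chain of fibrinogen from the liver, had an SD of 2.22. Its values lay between -6.20 and -5.31 on sham arrays 4, 5 and 6 and between -3.23 and -0.59 on the other 5, with no overlap.

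**Figure D1:**
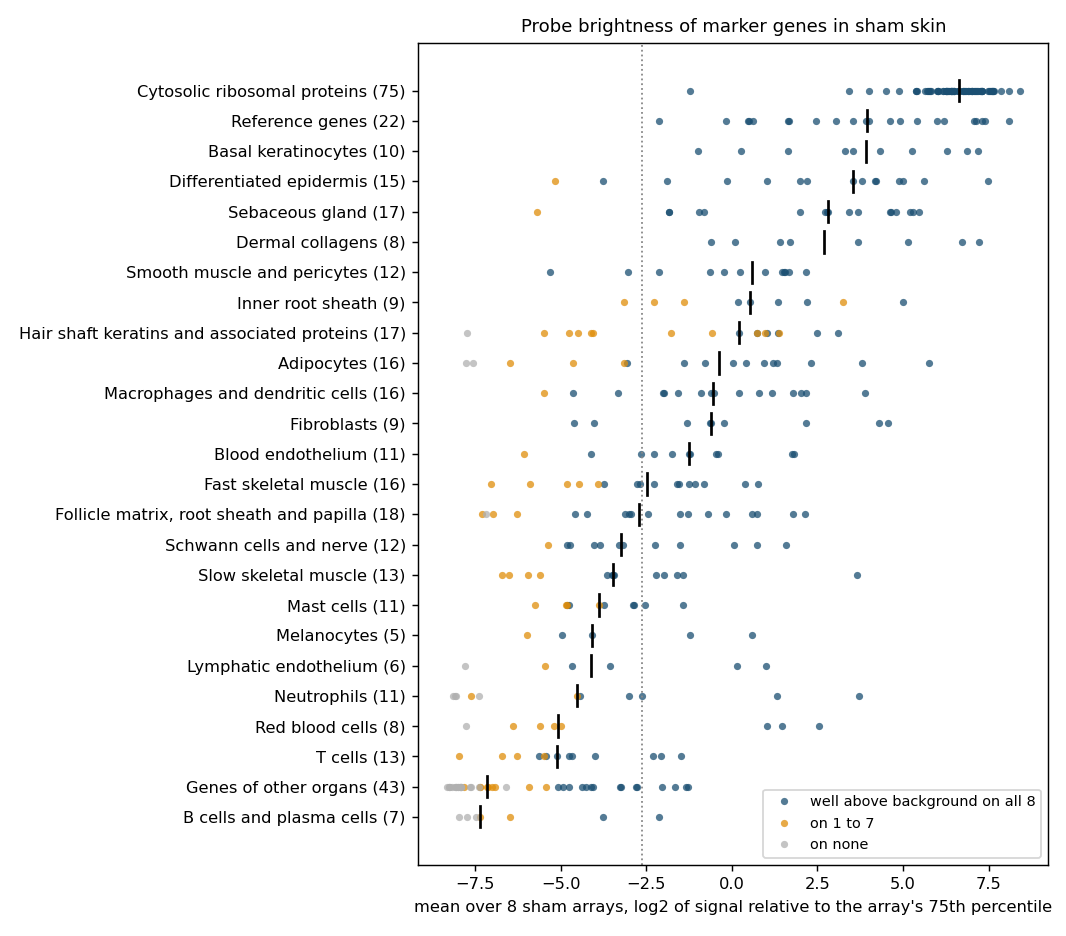
Each point is 1 gene, placed by its mean level over the 8 sham arrays (log2 of the signal relative to the array's 75th percentile), with the number of named genes of each list in parentheses. Black bars are list medians, the dotted line is the median of all named genes at -2.63, and colours give on how many arrays the gene was well above background. Ribosomal proteins and basal keratinocyte markers lie at the bright end, and genes of other organs and B cells at the dim end.

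Genes whose loss makes rodents hairless were mostly detected, as were most named genes. Of 13 named genes 11 (84.6%) were well above background on all 8 sham arrays, against 68.5% of all named genes. Edar, the ectodysplasin receptor that starts follicle formation, was so on none. Prss8 ran from 2.67 to 3.04 with a median of 2.89 and an SD of 0.12, and St14, the protease matriptase that works with it, from 2.95 to 3.32 with a median of 3.09. The probe of Prss8 reads the amount of transcript and says nothing of the protein. Hr, the nuclear co-repressor behind the classical hairless mutations, lay at -1.26 ± 0.19, and Vdr, the vitamin D receptor it acts on, at -1.77 ± 0.31. The lysophosphatidic acid pair Liph and Lpar6 lay at -0.62 ± 0.13 and 1.29 ± 0.25. Ctsl, a lysosomal protease, lay at 3.32 ± 0.32, Cdh3, the P-cadherin of follicle matrix, at 0.28 ± 0.24, and Plcd1, a phospholipase, at -0.58 ± 0.11. Foxn1, the factor mutated in nude animals, was dim at -4.57 ± 0.55. The 2 genes of this list with an SD above 1 were Krt75, a keratin of the companion layer, which ran from -3.23 to 2.69, and Dsg4, a desmoglein of the hair shaft, which was detected on 6 arrays and had an SD of 1.35.

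Most transcripts that change with time of day or handling were detected on every sham array. Among them were 22 of 23 named immediate early genes (95.7%), against 68.5% of all named genes. All 15 named clock genes were well above background on all arrays, and Dbp, an output gene with a strong daily rhythm, ran from 0.58 to 1.44 with a median of 1.23. Nr1d1, a repressor of the clock, had the largest SD of that list, 0.63, and the score of the whole list varied by an SD of 0.0770. Among immediate early genes Klf4 lay at 3.45 ± 0.19 and Junb at 3.37 ± 0.19, whereas Fos ran from -3.51 to -1.09 with a median of -1.85. Heat shock and chaperone genes were even, with Hspa8, the constitutive member of its family, at 5.66 ± 0.09 and Hspb1, the small heat shock protein of keratinocytes, at 5.01 ± 0.12. A list score is the mean, over the measured genes of a list, of the level minus the gene's mean over the 8 sham arrays.

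The spread between arrays was small for most genes and very large for a few. Over 11116 measured genes the median SD was 0.178, the 90th percentile 0.480 and the 99th 1.54. An SD above 1 was found for 247 genes, or 2.22% of those measured, and these held 53.0% of the summed variance. The 100 genes with the largest SD, 0.900% of the total, held 40.4%. The array pairs correlated between 0.959 and 0.993 over 20582 probes, and the SD of the difference of a pair ran from 0.354 to 0.868. Sham array 5 stood farthest from the rest with a median difference SD of 0.735, followed by sham array 6 with 0.608. Of the other 6 arrays, array 3 reached 0.554 and array 8 had the smallest value, 0.436.

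The spread was larger than the measurement noise within an array for most probes. Probes with several spots gave that noise directly: over 11564 such probes, the median SD between single spots of 1 array was 0.0909. The median SD between arrays, taken over spot averages, was 0.182. In limma's moderated F test over spots, 8168 of these 11564 probes (70.6%) differed between sham arrays at a Benjamini-Hochberg adjusted p below 0.05. Spots of an array share an extract and a hybridisation, so the test compares arrays and not rats.

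**Figure D2:**
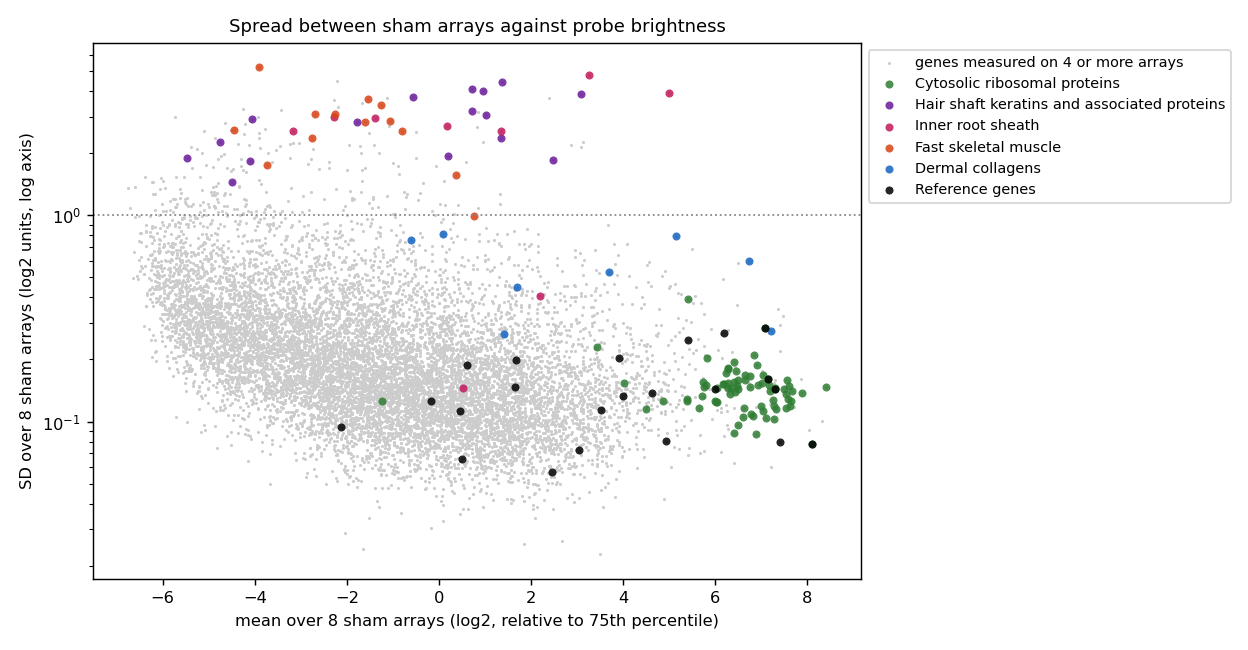
Every measured gene is placed by its mean level and by its SD over the 8 sham arrays, on a log axis. The dotted line marks an SD of 1. Ribosomal proteins (green) gather at high level and an SD near 0.144, whereas hair shaft, inner root sheath and fast muscle genes lie mostly above the line at all levels.

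Hair and muscle genes stood out among the 100 genes with the largest SD without filling that set. Keratins and keratin-associated proteins made up 29 of them, and their number among all measured genes was not counted. Another 15 belonged to the lists of skeletal muscle, which hold 22 of the 11116 measured genes. In all, 40 of the 100 belonged to any of the 40 lists, so most of the set lies outside the lists. Of all 11116 measured genes, 609 belonged to a list. The boundary is a matter of rank alone, since the last gene inside had an SD of 1.692 and the first outside 1.687. They spanned the whole range of brightness, with a median level percentile of 50.8. Only 45 of the 100 were well above background on all 8 arrays, so for the other 55 the lowest values lie near the scanner's floor and the SD rests on a bound. Of the 100, 86 had their highest value on sham array 3 and 59 their lowest on sham array 5, and 92 met at least 1 of these conditions. The same counts were not made over all measured genes, and the 100 were ranked by these same values.

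The inner root sheath keratins Krt25 and Krt27 were bright on all sham arrays but array 5. Both are type I keratins of that sheath, the sleeve that moulds the growing hair. Krt27 had levels of 6.16, 5.27, 6.32, 4.06, -8.18, 2.78, 4.48 and 5.19 on sham arrays 1 to 8. All arrays but 1 were bright, and array 5 was below background. Taking the dimmest detected probe of array 5 as the floor, the range of Krt27 was 21534-fold. That is not a lower bound, since Mt4, at -6.20 on array 5, was also not well above background there. Krt25 was at -4.44 on sham array 5 and between 4.56 and 7.48 elsewhere. Without array 5 the SD of Krt27 was 1.24 in place of 4.76, and that of Krt25 was 0.998 in place of 3.92. The mean level of Krt25 stood at the 98.8th percentile of named genes in spite of that array.

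Keratins of the hair shaft repeated the pattern, with sham array 6 in between. Krtap15-1, a protein that cross-links shaft keratins, had levels of 3.02, 2.77, 6.29, 2.55, -8.11, -1.73, 3.14 and 3.00. Array 3 was the highest, arrays 5 and 6 were the lowest, and the other 5 lay between 2.55 and 3.14. Krt33a, a type I shaft keratin, was at -8.05 on array 5, at -2.19 on array 6, at 5.18 on array 3 and between 1.96 and 2.45 on the remaining 5. Krt34, Krt33b, Krt85 and Krt87 and the associated proteins Krtap7-1 and Krtap14 had SDs from 3.17 to 3.99, with the same array at the top and the same array at the bottom. Without array 5 the SD was 2.33 for Krt34 and for Krt85, 1.94 for Krt87, 1.99 for Krtap7-1, 2.16 for Krt33a and 2.34 for Krtap15-1. Krt33b, Krt87 and Krtap7-1 stayed well above background on array 5, at -5.29, -5.61 and -5.33. Mt4, a metallothionein of stratified epithelia, was at -6.20 on array 5, 1.46 on array 6 and 6.25 on array 3, and its SD of 3.71 was 1.41 without array 5. Cts7, a placental-type cathepsin, was not well above background on arrays 5 and 6 and at 2.53 on array 3. Krtap31-1 differed, being at -4.68 on sham array 4 as well.

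Signalling and regulatory genes of the follicle varied less than its products. The 16 measured genes of the hair shaft list had a median SD of 2.88, and all 16 exceeded 1, against 2.22% of all measured genes. In the inner root sheath list 7 of 9 exceeded 1. Of 15 measured genes of the follicle matrix, outer sheath and papilla 3 exceeded 1, with a median of 0.449. Lef1, which carries Wnt signals to the nucleus in matrix cells, ran from -5.34 to -1.17 with a median of -2.85. Foxe1 and Ovol1, transcription factors of the follicle epithelium, lay at 2.14 ± 0.30 and 1.77 ± 0.14.

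**Figure D3:**
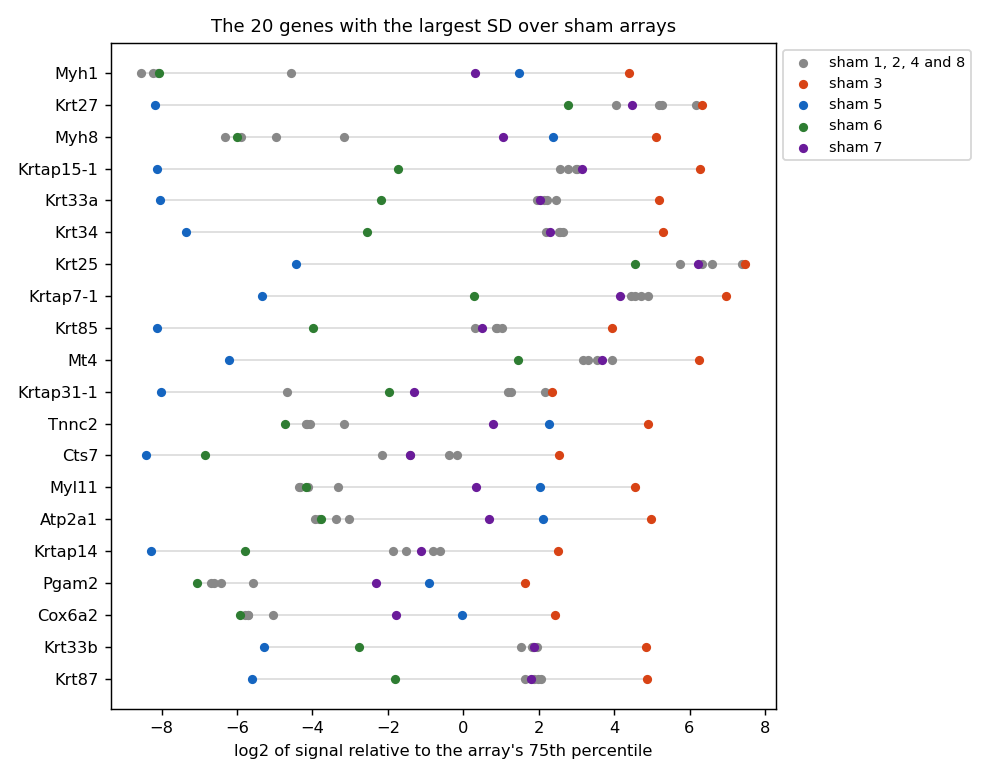
Levels of the 20 genes with the largest SD on each of the 8 sham arrays, 1 point per array, joined by a line from the lowest to the highest. For follicle genes such as Krt27 and Krt33a array 5 (blue) is at the bottom, and for muscle genes such as Myh1 and Tnnc2 arrays 3, 5 and 7 lie above the other 5.

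Skeletal muscle genes divided the arrays in another way. Myh1, a heavy chain of fast myosin, had levels of -8.09, -4.58, 4.40, -8.54, 1.48, -8.06, 0.31 and -8.22 on sham arrays 1 to 8, and its SD of 5.22 was the largest of all measured genes. It was well above background on arrays 2, 3, 5 and 7 alone. Tnnc2, the calcium-binding troponin of fast fibres, ran from 0.78 to 4.90 on arrays 3, 5 and 7 and from -4.72 to -3.17 on the other 5. Atp2a1, the calcium pump of fast fibres, lay between 0.68 and 4.99 on the same 3 arrays and between -3.94 and -3.02 on the rest. Myh8, the perinatal myosin chain, Myl11, a light chain, Pgam2, the muscle phosphoglycerate mutase, and Cox6a2, the striated muscle form of the oxidase subunit, had SDs of 4.45, 3.50, 3.29 and 3.24 with array 3 the highest each time. In all 7 genes the values of arrays 3, 5 and 7 lay above those of the other 5, with no overlap. These 7 were named for their large SD, and the split was read from the same values. Of the list of fast muscle genes, 12 of 13 measured members had an SD above 1. The remaining member, Pvalb, did not share the split and was lowest on array 7, at -0.19.

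Other genes of the muscle lists ranged from even to variable. Atp2a2, the calcium pump of slow fibres that keratinocytes also depend on, lay at 3.66 ± 0.05, and Cox6a1, the counterpart of Cox6a2 in most tissues, had an SD of 0.11. Eno3, the muscle enolase, was at 3.83 on sham array 3 against a median of -0.46, and Mb, the oxygen store myoglobin, at 2.94 against -2.71. Without array 3 the SD of Eno3 was 0.773 in place of 1.57, and that of Mb was 1.41 in place of 2.19. Actg2 and Mylk, of smooth muscle, ran from 0.66 to 2.81 and from 1.19 to 1.89. The score of smooth muscle and pericytes was also highest on arrays 3, 5 and 7, at 0.20 on each against at most 0.11 on the other 5, and its SD was 0.248 against 2.72 for fast muscle.

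Across all lists the scores separated the 2 patterns. The hair shaft score was 3.51 on sham array 3, -2.41 on array 6 and -5.42 on array 5, with the other 5 arrays between 0.14 and 1.16. The inner root sheath score was -5.59 on array 5 and between -0.72 and 2.04 on the others. The fast muscle score was 5.24 on array 3, 2.55 on array 5, 1.20 on array 7 and between -2.05 and -1.35 on the remaining 5. In the principal components of the measured genes, the first held 39.2% of the variance, with hair keratins at one end and sham array 5 at the other. The second held 26.4%, with muscle genes and arrays 3 and 5 at its high end, and the third held 11.7%. Sham array 3 was high in both hair and muscle, and array 5 low in hair but high in muscle. Single arrays weigh on these spreads: the SD of the hair shaft score was 2.72 over all 8 arrays and 1.75 without array 5, that of the inner root sheath score 2.45 and 1.01, and that of the slow muscle score 1.41 and, without array 3, 0.816. With arrays 3 and 5 both left out, a choice made after seeing the values, 61 of the 100 genes kept their place among the 100 largest SDs, and 166 genes had an SD above 1.

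**Figure D4:**
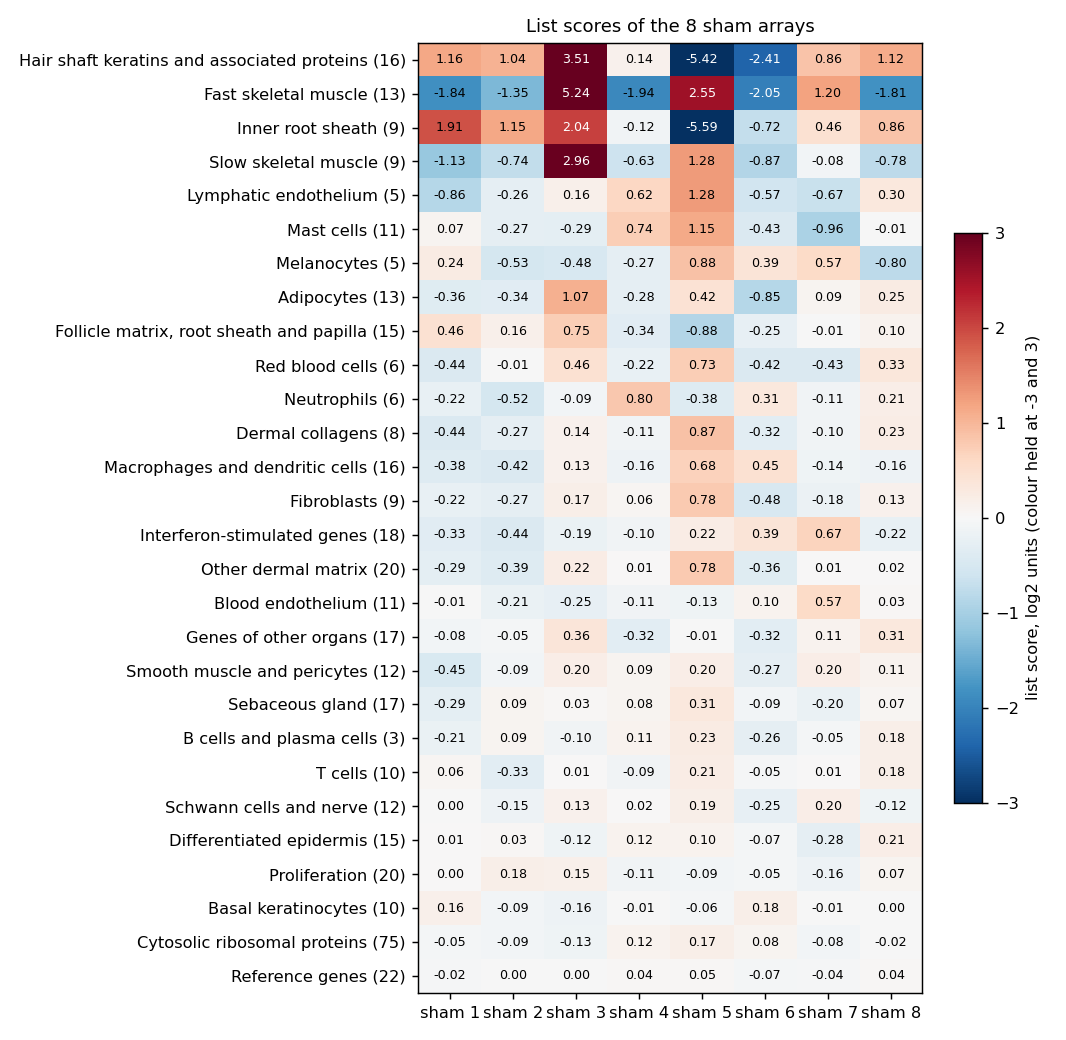
Scores of the cell type lists and of some process lists on the 8 sham arrays in log2 units, with colour held at 3 either way, ordered from the list with the largest SD at the top, with the number of measured genes in parentheses. Hair shaft and inner root sheath scores are lowest on array 5, skeletal muscle scores are highest on array 3, and the rows of basal keratinocytes, ribosomal proteins and reference genes stay within 0.18 of 0.

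Sham array 5 was also the highest in genes of the dermis. Its scores were 0.87 for collagens, 0.78 for other matrix and 0.78 for fibroblasts, and the next highest were 0.23, 0.22 and 0.17. Without it the SDs of these scores were 0.243, 0.235 and 0.241, against 0.42, 0.38 and 0.39 with it. Among 177 genes for which a single array stood apart by at least 1 log2 unit, it was the high array for 43. These included Col3a1, at 6.85 against a median of 4.93, Eln, the elastin gene, at 1.83 against 0.08, Mfap5, a protein of elastic microfibrils, at 3.88 against 2.00, and Mmp2, a gelatinase of fibroblasts, at 4.76 against 3.37. Array 5 also had the highest score in many other lists. Among them were lymphatic endothelium at 1.28, mast cells at 1.15, sebaceous gland at 0.31, barrier lipids at 0.21 and ribosomal proteins at 0.17. Its score of differentiated epidermis was 0.10, below the 0.21 of array 8. The share of cell types in this biopsy was not measured, and the part it plays in these values was not tested.

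Fat markers were highest on sham arrays 3 and 5 where they varied most. The adipocyte score ran from -0.85 on sham array 6 to 1.07 on array 3, with 0.42 on array 5. Car3, a carbonic anhydrase of fat and muscle, had the largest SD of the list, 2.24, and ran from -6.90 to 0.63. Cidec, of the adipocyte lipid droplet, ran from -5.93 to -2.26, and Cfd, the adipokine adipsin, from 2.81 to 4.75. In all 3 genes arrays 3 and 5 were the highest, arrays 7 and 8 came next, and array 1 or 6 was the lowest. Cidea, a lipid droplet protein made by sebocytes as well, had an SD of 0.23 and was low on arrays 1 and 3.

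Cxcl2, Ccl3 and Cxcl13, 3 chemokine genes, were brightest on sham array 6, whereas another chemokine, Ccl21, was highest on array 5 at 1.91 and lay at -0.87 on array 6. Cxcl2, a chemokine that draws neutrophils, was at 2.16 on sham array 6 and between -5.59 and -4.16 on the other 7. Its values on array 6 and the lowest array were 216 times apart, and its SD of 2.50 was 0.530 without array 6. Ccl3, a chemokine of myeloid cells, was at 0.93 there against a median of -3.61. Cxcl13, which attracts B cells, was at 2.26 against -0.87, and Il1b, the cytokine interleukin 1 beta, at 2.01 against 0.33. The 11 genes for which array 6 was the single high array also included Itgam, an integrin of myeloid cells, at -3.41 against -4.74. The neutrophil score of array 6 was 0.31, below the 0.80 of array 4, and its macrophage score was 0.45, below the 0.68 of array 5. These genes were picked out after their values were seen.

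Sham array 1 stood apart in a family of neighbouring genes. Ces1e, a carboxylesterase, was at -3.64 on array 1 and between -0.91 and 0.71 on the others. Ces1d was at 3.83 against at least 5.53, Ces1f at -5.70 against at least -4.10, and Ces1dl1 at -1.51 against at least -0.22. They lie in 1 cluster of the rat genome and have similar sequences, so their probes may read each other's transcripts. The same genes had SDs of 1.29, 0.50, 0.74 and 0.63 over the exposed arrays. Lpal2 was not well above background on sham array 7, at -5.57, and lay between 0.67 and 2.71 on the other 7. Its SD was 2.69, and 0.795 without array 7. That of Ces1e was 1.43, and 0.578 without array 1. These genes too were chosen after their values were seen.

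A few probes took 2 separate levels. A search for probes whose sham values split by a gap of at least 1 log2 unit, with 2 or more arrays on each side and each side spread over at most 50% of the gap, found 21 of 20574 probes. The search was devised after the values had been seen. Of these probes, 8 were named, and they stood for Tas2r129, Vom2r63, Ctu1, Gal, Klra2, Madcam1 and Acadsb. Ctu1, a subunit of the enzyme that modifies the wobble base of some tRNAs, lay between -0.79 and -0.60 on sham arrays 3, 4, 7 and 8 and between -4.40 and -3.82 on arrays 1, 2, 5 and 6. Its other measured probe had an SD of 0.257. Gal, the neuropeptide galanin, was low on arrays 4 and 5 in both its probes. Tas2r129, a taste receptor gene, and Vom2r63, a vomeronasal receptor gene, were below background on arrays 4, 5 and 6, the arrays on which Fgg was low.

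Few probes passed a test of slide differences, which had little power. The 8 sham arrays lie on 4 slides, with 2, 2, 1 and 3 arrays. In limma's moderated F test of slide, 2 of 20582 probes (0.00972%) passed an adjusted p of 0.05, and 1436 (6.98%) had an unadjusted p below 0.05. With so few arrays per slide, the small count does not show that the slides are alike. Neither of the 2 probes has a gene symbol, and both are among those with 2 levels. They were bright on sham arrays 1 to 4 (slides 1 and 2) and dim on sham arrays 5 to 8 (slides 3 and 4), whereas exposed arrays of slides 1 and 2 lay at both levels. Sham array 5 is alone on its slide, so its values and those of slide 3 cannot be told apart.

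The smallest spreads between arrays, taken over spot averages, lay below the median SD between single spots. The 100 genes with the smallest SD, of the 10380 detected on all 8 arrays, had SDs up to 0.0515 with a median of 0.0463. The median SD between single spots was 0.0909, but averages of spots vary less than single spots, so the values cannot be compared directly. None of the 22 named reference genes was among these 100. With 100 of 10380 genes in the set, few or none would be there by share alone. The first 10 were Ctbp1, a transcriptional co-repressor, at 3.50 ± 0.02, Mblac1, Cmtr1, which methylates the messenger RNA cap, Mtdh, Lnpk, which stabilises junctions of the endoplasmic reticulum, Jkamp, Ric8a, Mob1a, Ppwd1 and Efl1, which releases a factor from new ribosomal subunits. Their order is not resolved, since only 6 of the 100 were also among the 100 smallest SDs of the exposed arrays, although 99 fell in the lower 50% there. Of the 100, 3 belonged to any of the 40 lists, which hold 609 of the 11116 measured genes.

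Reference genes were stable as a group and differed among themselves. All 22 named ones were well above background on every array, with a median SD of 0.136, and their score varied by an SD of 0.0409. Sdha, a subunit of succinate dehydrogenase, had the smallest SD, 0.06, followed by Gak with 0.07 and Hprt1 with 0.07. Rplp0 and Ppia, a ribosomal stalk protein and a prolyl isomerase, combined high brightness with an SD of 0.08, and Pgk1, of glycolysis, lay at 4.92 ± 0.08. Gapdh, of the same pathway, lay at 4.00 ± 0.13 and ran from 3.84 to 4.29. The largest SDs were those of Rpl13a with 0.28, Eef1a1 with 0.27 and Actb, beta actin, with 0.25, and Actb ran from 5.07 on sham array 6 to 5.85 on array 8. A single array set some of them: without array 6 the SD of Eef1a1 was 0.0924, and without array 3 that of Gapdh was 0.07. Between single spots of an array, Eef1a1 had an SD of 0.49, Tubb5 0.27 and Rer1 0.22. The SDs between arrays are those of spot averages, so they cannot be compared directly with these values. In limma's moderated F test over spots, these genes were not called different between arrays, with adjusted p of 0.69, 0.35 and 0.24. Actg1, the other cytoplasmic actin, had an SD of 0.06. Tfrc, Tubb5 and Rer1 had SDs of 0.20, 0.20 and 0.19, and Gusb, Tbp, Ywhaz, B2m, Hsp90ab1, Rpl19 and Rps18 lay between 0.09 and 0.16.

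The promoters of variable and even genes differed in their letters. RefSeq promoters of the build GRCr8, from 250 bases before to 50 after the start, were matched by symbol for 88 of the 100 genes with the largest SD and 82 of the 100 with the smallest. The letters TATAAA, which the TATA-binding protein recognises, were sought on both strands. They occurred in 36 of the 88 promoters (40.9%), which include 19 of 27 keratin or keratin-associated genes and 17 of the 61 others (27.9%). They occurred in 5 of the 82 (6.10%), in 8.33% of 9057 promoters of measured genes and in 14.3% of all 27457 promoters of the table. From 45 to 21 bases before the start and on the gene's own strand, a window set after seeing the values, they occurred in 13 of 88 (14.8%), in 0 of 82 and in 1.95% of measured genes. Of those 13, 7 were keratin or keratin-associated genes, and among the 61 others the share was 9.84%. The median promoter of the variable set held 6 CpG pairs and 53.7% G and C, against 23 pairs and 59.8% in the even set and 20 pairs in measured genes. Among the 100 brightest genes only 79 had a promoter in the table, too few for this comparison.

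The 60 bases before the start are shown for the 5 most variable genes with the motif near the start, for 2 of the brightest genes, and for the 3 most even genes with a promoter in the table. Capitals mark TATAAA, and each run is read from 5′ to 3′ on the gene's own strand.
Myh1, chr10:52384852-52384911, plus strand: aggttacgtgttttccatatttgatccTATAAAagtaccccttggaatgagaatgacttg
Krt34, chr10:85474502-85474561, minus strand: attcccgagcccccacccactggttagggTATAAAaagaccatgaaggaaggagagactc
Krt25, chr10:84771198-84771257, minus strand: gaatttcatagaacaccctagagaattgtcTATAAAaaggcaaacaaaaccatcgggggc
Krtap7-1, chr11:42227231-42227290, minus strand: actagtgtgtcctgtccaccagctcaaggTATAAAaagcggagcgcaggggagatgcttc
Mt4, chr19:10871832-10871891, minus strand: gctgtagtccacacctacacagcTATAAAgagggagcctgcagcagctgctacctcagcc
Rplp0, chr12:46718391-46718450, minus strand: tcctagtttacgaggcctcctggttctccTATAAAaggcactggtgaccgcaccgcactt
Rpl41, chr7:1563498-1563557, minus strand: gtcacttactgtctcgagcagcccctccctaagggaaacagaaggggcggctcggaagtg
Ctbp1, chr14:81680036-81680095, plus strand: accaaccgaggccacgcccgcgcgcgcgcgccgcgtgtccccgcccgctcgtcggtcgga
Lnpk, chr3:79894404-79894463, minus strand: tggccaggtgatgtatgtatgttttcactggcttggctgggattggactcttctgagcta
Jkamp, chr6:96383916-96383975, plus strand: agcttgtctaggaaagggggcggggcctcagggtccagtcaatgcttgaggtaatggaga
The motif begins 33, 31, 30, 31 and 37 bases before the start in Myh1, Krt34, Krt25, Krtap7-1 and Mt4. Rplp0, whose SD was 0.08, holds it 31 bases before the start as well. In 300 bases the promoters of the 5 variable genes hold 3, 3, 8, 3 and 4 CpG pairs in that order. Those of the even genes Ctbp1, Lnpk and Jkamp hold 47, 2 and 10, and that of Lnpk also holds the motif outside the bases shown.

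Variable genes also lay side by side in the genome. Of 99 genes of the variable set that the RefSeq table places, 35 had another member within 5 protein-coding genes, against 7 of 100 in the even set and 6 of 100 among the brightest. The largest runs were 2 groups of 7 genes on chromosome 10, 1 from Krt25 to Krtap1-5 and 1 from Krtap31-1 to Krt36, and 5 genes on chromosome 7 around Krt85. Members of these runs are related in sequence, which the probes may not separate fully.

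The genes with the largest spread between sham arrays mostly varied in the exposed arrays too, which had no part in the ranking. Of the 100 genes with the largest SD in sham skin, 82 were among the 100 with the largest SD in exposed skin, where 100 of 11116 measured genes is 0.9%. All but 1 lay in the top 5% there, and the median SD of the 100 was 2.36 in sham and 2.20 in exposed arrays. Myh1 had an SD of 4.32 in the exposed arrays, Tnnc2 3.64, Krt27 1.70 and Krt25 1.57. The fast muscle score had an SD of 2.72 in sham and 2.91 in exposed arrays, and the hair shaft score 2.72 and 2.08. Other scores differed more, among them collagens with 0.42 and 0.17, other matrix with 0.38 and 0.13 and fibroblasts with 0.39 and 0.13. Adipocytes had 0.59 and 0.23, lymphatic endothelium 0.73 and 0.31, and macrophages and dendritic cells 0.39 and 0.17. Without sham array 5 the sham SD was 0.243 for collagens, 0.235 for other matrix and 0.241 for fibroblasts. Lpal2 and Cxcl2, each set by 1 sham array, had exposed SDs of 0.32 and 0.75 against 2.69 and 2.50 in sham.

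**Figure D5:**
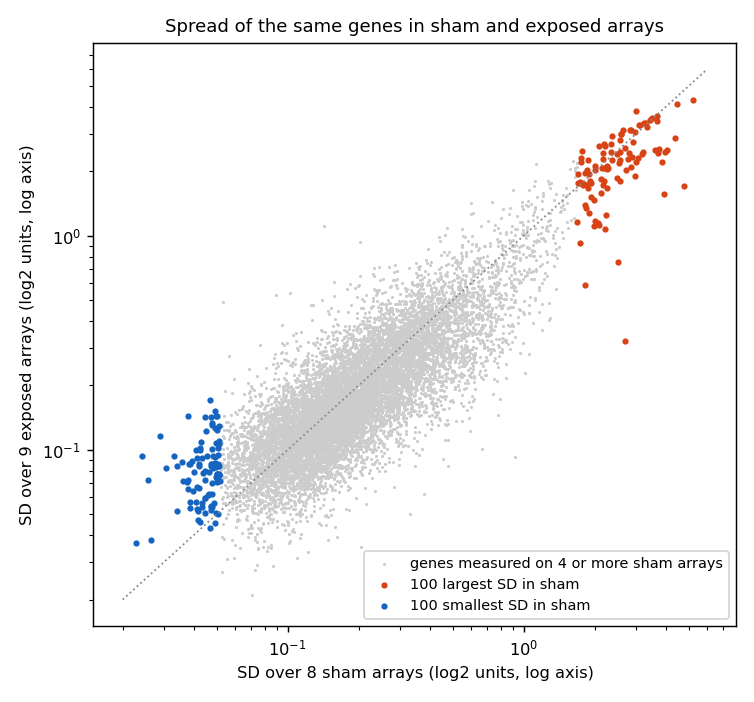
SD of each measured gene over the 8 sham arrays against its SD over the 9 exposed arrays, both on log axes, with the line of equality dotted. The 100 genes with the largest SD in sham (orange) lie near the line, with median SDs of 2.36 and 2.20, and the 100 with the smallest (blue) lie above it, with medians of 0.0463 and 0.0783.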

How the data were processed

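Spot intensity of 1-colour Agilent arrays, on a linear scale and not scaled between arrays, was produced by the authors with Feature Extraction version 10.7.3.1 (protocol GE1_107_Sep09), per the file headers, and the processed signal has each array's own background subtracted. Per the labels' protocols, 15 to 20 mg of skin were homogenised and 0.1 µg of RNA was labelled with Cy3. The deposited value table holds the authors' log2 values of 14853 probes, by a scaling not given in the sources used here, and served as an alternative.

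From the processed signal, log2 was taken and each array's 75th percentile subtracted. Control spots were removed, as were spots that the scanner software marked as non-uniform or as population outliers, and the remaining spots were averaged per probe. A probe counted as well above background when at least 50% of its spots were. Symbols came from RefSeq tables of GRCr8, used for names and neighbours, since the array grid is annotated on rn4. For a symbol with several promoters the first listed was taken. Tests used limma 3.58.1 in R 4.3.3 with Benjamini-Hochberg adjustment, and were tested on simulated data. Array differences used spots of 11564 probes, and slide differences used 20582 probes detected on at least 4 sham arrays. The number of arrays limits the precision. In the test of arrays, p-values set differences between arrays against the spread between spots of an array. In the test of slides, they set differences between slides against the spread between arrays. No label says that arrays came from separate animals, so that spread may be technical.

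Genes were named by rule: the 15 brightest, the 20 with the largest SD, the 10 with the smallest, the 2 brightest and 2 most variable of each of 40 lists, and all reference and hairless-mutation genes, apart from a few that are not reported here. Genes outside the rule were chosen after their values were seen, among them Krt5, Rpl15, Eln, Mmp2 and the genes apart on single arrays or with 2 levels. The lists and members were chosen with earlier results of these data known. Alternatives were other scaling, background correction, filters, spread measures, probe rules, the slide as a block, the value table and leaving out arrays. Normexp correction used the median spot signal, in place of the mean that had been planned. No group comparison was made.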

Additional observations from a re-analysis of the deposited data

Results flagged for a closer look

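In 3 of 40 list scores and 31 of 156 genes described above, a single sham array lay far from the other 7: its gap to the nearest of them was a larger share of the whole range than Dixon's 95% critical value for 8 samples. Chance alone gives about 1 in 20 such results. Genes of a list, and genes chosen because 1 array stood apart, are not independent, so the number carries no weight of its own. No cause was tested.

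Sham array 5 accounted for 14 of the 34. The inner root sheath score was -5.59 there against a median of 0.860 on the other arrays, with Krt25 at -4.44, Krt27 at -8.18 and Mt4 at -6.20. On the same array matrix genes were high, with Sparc at 7.79, Col3a1 at 6.85, Mmp2 at 4.76, Mfap5 at 3.88 and Eln at 1.83. So were Pdpn at 2.36, Pmp22 at 1.67, Mlana at 0.31, Sftpc at 0.54 and Ubb at 5.91.

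Sham array 6 had high levels of Cxcl13 at 2.26, Cxcl2 at 2.16, Il1b at 2.01, Ccl3 at 0.93 and Itgam at -3.41, and low levels of Eef1a1 at 5.57 and of the actin and tubulin score at -0.25. Sham array 1 had low levels of Ces1d at 3.83, Ces1dl1 at -1.51, Ces1e at -3.64, Ces1f at -5.70 and Dbp at 0.58, and a high level of Cers3 at -2.33. Eef1a1 and Cers3 were not called different between arrays in limma's moderated F test over spots, with adjusted p of 0.69 and 0.50. Sham array 3 was high in Eno3 at 3.83 and Gapdh at 4.29 and low in Krt1 at 6.79. Sham array 7 was low in Lpal2 at -5.57 and Hspb1 at 4.72 and high in the blood endothelium score at 0.57. Sham array 2 was low in Cd3d at -1.90.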

How the results depend on the processing

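The number of measured genes with an SD above 1, 247, changed with the treatment of dim values: it was 109 with normexp background correction, 121 among genes detected on all 8 arrays and 407 with no filter. It also changed with the measure of spread, to 154 with the median absolute deviation in place of the SD. It ran from 204 to 274 when each array was left out. Of the 100 genes with the largest SD, 45 remained among the 100 under the filter on all 8 arrays, 51 with the median absolute deviation and 61 without arrays 3 and 5, and from 81 to 98 without any single array. The median SD ran from 0.169 to 0.185 in that series, and the list of the 100 brightest genes kept 90 or more members under every scaling, background, filter and probe rule tried. Probes called different between arrays ranged from 6568 of 11564 with normexp to 8929 of 16177 with no filter, and between slides from 2 to 3. For the test of arrays, normexp and quantile scaling replaced only a probe's mean on each array. The spread between its spots was kept as it was.

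Of the 40 list score SDs and 156 gene SDs, 6 and 64 fell by more than 1.5 times with the median absolute deviation, 10 and 47 without arrays 3 and 5, 5 and 30 without array 5 alone, and 5 and 23 with normexp. With slide as a block 7 and 35 did, but 1 slide holds a single sham array, which then drops out. Detection on all 8 arrays cannot be recomputed under the filters on dim probes, since it is such a filter. Levels near the floor of the scanner are bounds. No paired analysis was possible because the sham arrays were not compared with another group, and replicate numbers were given in accession order.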
